A study of Mus musculus with 8 samples.

Results

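The STAT transcription factors and the SOCS proteins that restrain them were followed here as 9 genes, Stat2, Stat3, Stat4, Stat5a, Stat5b, Stat6, Socs1, Socs2 and Socs3, through every probe set of the Affymetrix MG U74Av2 array that its annotation assigns to one of them. These were 11 of the 12422 probe sets tested and covered 8 of the 9 genes, since none was assigned to Stat2, which was therefore not analysed here. Stat3, Stat5a and Socs3 had 2 probe sets each. Spinal cord RNA was taken from SJL/J mice with experimental autoimmune encephalomyelitis (EAE), an animal model of multiple sclerosis, and from healthy control mice, all female and 8 to 12 weeks old by the labels. EAE followed injection of PLP peptide under the skin, and control mice had vehicle alone. The study's methods describe an emulsion of the peptide in Complete Freund's Adjuvant and pertussis toxin for its EAE mice. They do not say whether control mice had the adjuvant or the toxin, so that their part and that of EAE cannot be told apart here. The EAE mice had an average grade of 2.5 and were killed on day 12 to 17, and they also had murine serum albumin intravenously before they were killed, which the labels do not give for control mice, so that its part and that of EAE cannot be told apart. RNA of 2 mice was pooled for every array, so that the 5 EAE arrays stand for 10 mice and the 3 control arrays for 6. The arrays were run in batches that equal the array numbers, and batches 1, 2 and 3 held 1 EAE and 1 control array each.

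The array medians lay between 6.09 and 6.13 on the log2 scale in EAE and between 6.08 and 6.10 in control. In the limma fit described below, 8.26% of all 12422 probe sets were higher in EAE and 11.4% lower, at an adjusted p under 0.05. The marker counts use the same threshold, with 1 probe set a gene. Markers of macrophages and microglia were higher in EAE for 9 of 10 genes measured, and their mean log2 signal was 8.27 to 8.83 in EAE arrays and 6.28 to 6.33 in control arrays. Of 9 T cell markers 3 were higher (Cd3e, Cd2 and Cd5) and 1 was lower, with a mean of 5.96 to 6.05 in EAE and 5.71 to 5.85 in control. The lower one was Thy1, the brightest of the 9, at 10.17 in EAE and 10.50 in control. The other T cell markers lay between 4.04 (Cd3g) and 6.21 (Cd3e) in control, so Thy1 raises the mean of the list. Which cells the Thy1 signal came from was not tested. Of 9 neutrophil markers 5 were higher (6.33 to 6.74 in EAE, 5.18 to 5.25 in control), and of 7 neuronal markers 3 were lower (8.95 to 9.51 in EAE, 9.92 to 10.03 in control). Of 6 astrocyte markers 1 was higher and 1 lower. Of 6 oligodendrocyte and myelin markers 1 was lower, and of 6 endothelial markers 1 was higher. None of 5 B cell markers and none of 3 skeletal muscle and Schwann cell markers passed. In this bulk tissue a gain or loss of cells of a type and a change of RNA per cell cannot be told apart, and the part of these cell types in the values below was not tested. Arrays 1 and 4 of EAE had the largest excess of 3' over 5' Gapdh signal, at 1.46 and 2.07 on the log2 scale, while EAE arrays 2, 3 and 5 had 0.46 to 0.78 and control arrays 0.53 to 0.97. The same excess for actin was 2.35 and 2.79 in EAE arrays 1 and 4. It was 1.11 to 1.83 in EAE arrays 2, 3 and 5 and 1.62 to 2.29 in control arrays, so array 1 stood out less.

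STAT proteins wait in the cytoplasm until a cytokine receptor and its Janus kinases phosphorylate them, after which they enter the nucleus as dimers and bind DNA. The receptor decides the member: STAT2 serves type I interferon, STAT3 the interleukin 6 and interleukin 10 families, STAT4 interleukin 12, STAT5A and STAT5B interleukin 2, growth hormone and the GM-CSF family, and STAT6 interleukin 4 and interleukin 13. SOCS genes are themselves switched on by STATs and interferon, and their products shut the same receptors down. In EAE this pathway is known for directing T helper cell fates and for the responses of macrophages and astrocytes to cytokines.

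Motifs known for STATs and for interferon factors were looked for in the promoters of these genes, and those of Socs1 and Socs3 are shown because both genes rose and hold a match. The RefSeq table (GRCm38.p6) had windows for 8 of the 9 genes, from 250 bases before to 50 bases after each annotated start, in 11 windows. They were searched on both strands for TTCNNNGAA, the core of a STAT site, for TTCNNNNGAA, the wider form that STAT6 prefers, and for GAAANNGAAA, a core of the interferon-stimulated response element. The Socs1 window is chr16:10785487-10785786 and the Socs3 window chr11:117969317-117969616, both on the minus strand and written 5′ to 3′ with matches in capitals.
Socs1: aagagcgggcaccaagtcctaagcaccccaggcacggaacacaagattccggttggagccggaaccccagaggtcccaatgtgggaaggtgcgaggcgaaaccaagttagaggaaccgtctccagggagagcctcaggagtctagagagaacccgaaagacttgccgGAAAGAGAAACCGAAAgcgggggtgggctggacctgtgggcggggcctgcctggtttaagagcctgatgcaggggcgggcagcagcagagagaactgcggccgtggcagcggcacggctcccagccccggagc
Socs3: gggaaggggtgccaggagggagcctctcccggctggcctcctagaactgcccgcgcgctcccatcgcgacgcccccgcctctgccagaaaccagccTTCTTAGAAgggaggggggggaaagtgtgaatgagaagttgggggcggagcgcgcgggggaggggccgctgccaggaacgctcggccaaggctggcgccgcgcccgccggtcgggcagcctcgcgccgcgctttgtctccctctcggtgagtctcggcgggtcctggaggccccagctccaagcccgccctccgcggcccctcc
The capitals in Socs1 are 2 overlapping matches of GAAANNGAAA, at bases -83 to -74 and -77 to -68 from the start. The same motif matched the Stat2 window and 1 of the 2 Stat4 windows, that is 3 of 8 genes, where 3.44% of 32851 windows and 3.99% of 27025 genes held it. The capitals in Socs3 are TTCTTAGAA, at bases -154 to -146, the only match of TTCNNNGAA among these genes, a motif in 8.3% of all windows. TTCNNNNGAA matched the Stat2 window alone, and 6.95% of all windows held it. A match describes letters and not a bound site.

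Spinal cord RNA of EAE mice held more of all 3 SOCS transcripts, and of Stat6, Stat3 and Stat5a, while Stat4 and Stat5b did not pass the test. The differences were fitted with limma, a linear model that borrows strength for its variances from all probe sets, with batch as a term, so that the fold changes rest on the pairs of batches 1 to 3 and EAE arrays 4 and 5 do not enter them. p values were adjusted for the false discovery rate over all probe sets. At an adjusted p under 0.05 from limma, 8 of the 11 probe sets were higher in EAE and 0 were lower, against 8.26% of all 12422 probe sets higher and 11.4% lower. Of the 11, 10 had an unadjusted p under 0.05 in limma, all higher in EAE, against 12.1% of all probe sets higher at that p. Of the 4 SOCS probe sets all 4 passed, and of the 7 STAT probe sets 4 passed. At least 2-fold higher among those that passed were 5 of the 11, against 3.37% of all probe sets. In 10 of the 11 every EAE array lay above every control array, a pattern that 10.9% of all probe sets showed. The median log2 fold change of the 11 was 0.97, and that of all probe sets -0.05. Without EAE array 3 or control array 3 the count was 5, after loss of Socs1, Stat3 99099_at and Stat5a 100422_i_at. Leaving out either array removes the pair of batch 3, so that these fits rest on the pairs of batches 1 and 2. The log2 fold changes were then 1.09, 0.69 and 0.49, against 1.08, 0.63 and 0.42 in the main fit. Over all probe sets 521 were then higher, where the main fit had 1026. Ordinary least squares, which does not moderate the variances, called none of the 11 at an adjusted p under 0.05 and had 8 higher at an unadjusted p under 0.05, against 8.7% of all probe sets.

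**Figure D1:**
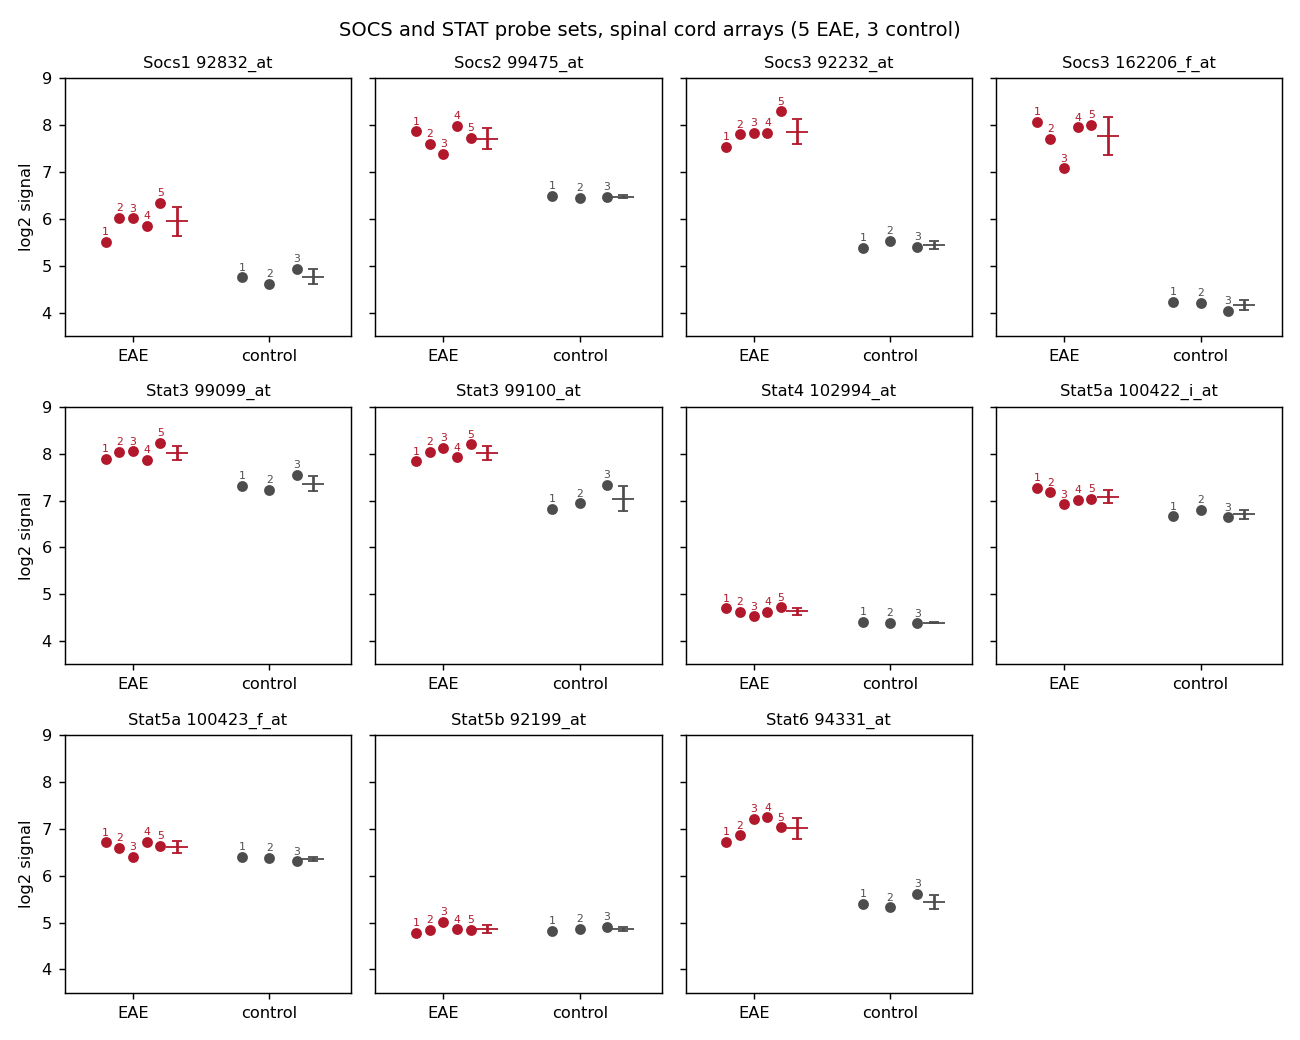
Log2 signal (vertical axis) of each of the 11 SOCS and STAT probe sets on the 5 EAE arrays (red, left) and the 3 control arrays (grey, right), numbered by array, with group means and SD beside the points. Socs3 92232_at lies between 7.54 and 8.29 in EAE and between 5.38 and 5.53 in control, while the groups of Stat5b overlap.

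Socs3, the SOCS protein that binds gp130, the shared receptor chain of the interleukin 6 family, changed the most. Its probe set 92232_at had a log2 signal of 7.54, 7.80, 7.84, 7.83 and 8.29 in EAE arrays 1 to 5, against 5.38, 5.53 and 5.41 in control arrays 1 to 3. Array 5 of EAE was the highest and array 1 the lowest, and the lowest EAE array exceeded the highest control array by 2.01. The log2 fold change was 2.29 ± 0.0800 (SE) with a limma adjusted p of 0.000279, which is 4.89-fold (95% interval 4.24 to 5.64). Within batches 1, 2 and 3 the difference was 2.16, 2.27 and 2.44.

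The second Socs3 probe set, 162206_f_at, whose suffix marks probes that may be shared with related sequences, gave a larger difference. Its log2 signal was 8.08, 7.71, 7.08, 7.96 and 8.01 in EAE arrays 1 to 5, against 4.24, 4.20 and 4.03 in control arrays. Here EAE array 3, the pool of day 17, was the lowest and EAE array 1 the highest, so that the 2 probe sets did not order the EAE arrays in the same way. The log2 fold change was 3.46 ± 0.159 (SE) with a limma adjusted p of 0.000485, and the within-batch differences were 3.84, 3.51 and 3.04. In control only 3.59% of all probe sets were dimmer than 162206_f_at, against 33.4% for 92232_at, so the control level of 162206_f_at lay near the low end of the array's range.

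Socs1, which binds Janus kinases and is known as the main brake on interferon gamma signalling, had a single probe set that rose. It had a log2 signal of 5.51, 6.02, 6.01, 5.85 and 6.35 in EAE arrays 1 to 5, against 4.75, 4.61 and 4.94 in control arrays. The groups did not overlap, although the signal was dim in control, with 14.6% of all probe sets dimmer, and the EAE arrays spread over 0.84, more than for any other of the 11 probe sets apart from 162206_f_at. The log2 fold change was 1.08 ± 0.133 (SE) with a limma adjusted p of 0.00782, with within-batch differences of 0.76, 1.41 and 1.08. Without EAE array 3 or control array 3 the log2 fold change was 1.09 and Socs1 did not pass (adjusted p = 0.0705 from limma).

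Socs2, known for damping growth hormone signalling, had a log2 signal of 7.87, 7.61, 7.40, 7.99 and 7.73 in EAE arrays 1 to 5. Its control arrays were at 6.50, 6.45 and 6.48, a range of 0.05, and every EAE array lay well above them. The log2 fold change was 1.15 ± 0.103 (SE) with a limma adjusted p of 0.00332, and the within-batch differences were 1.37, 1.16 and 0.92. The 2 highest arrays were EAE arrays 4 and 1, those with the largest 3' excess of Gapdh. Without EAE arrays 1 and 4 the log2 fold change of Socs2 was 1.04 and its limma adjusted p 0.00598. Array 4 does not enter this fit, so the values equal those without EAE array 1 alone and do not test array 4. In an alternative added after the data were seen, the batch term was also dropped. There the log2 fold change was 1.10 and the limma adjusted p 0.000343.

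Stat6, the STAT of interleukin 4 and interleukin 13, had the largest difference among the STAT genes. Its log2 signal was 6.73, 6.87, 7.22, 7.25 and 7.03 in EAE arrays 1 to 5, against 5.40, 5.33 and 5.61 in control arrays. Arrays 3 and 4 of EAE were the highest, and the lowest EAE array exceeded the highest control array by 1.12. The log2 fold change was 1.49 ± 0.0821 (SE) with a limma adjusted p of 0.000805, which is 2.81-fold (95% interval 2.43 to 3.26). The within-batch differences were 1.33, 1.54 and 1.61.

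Stat3, the STAT of the interleukin 6 and interleukin 10 families and a known driver of T helper 17 cells and of reactive astrocytes, was higher by both of its probe sets. The probe set 99099_at was at 7.89, 8.04, 8.05, 7.87 and 8.23 in EAE arrays 1 to 5, against 7.31, 7.23 and 7.54 in control arrays, with a log2 fold change of 0.63 ± 0.0846 (SE) and a limma adjusted p of 0.010. The probe set 99100_at was at 7.84, 8.04, 8.12, 7.92 and 8.20 in EAE and at 6.83, 6.94 and 7.33 in control, with a log2 fold change of 0.97 ± 0.0851 (SE) and a limma adjusted p of 0.00323. By both probe sets EAE array 5 was the highest array and control array 3 the highest control array, and the groups did not overlap. The within-batch differences were 0.57, 0.80 and 0.50 for 99099_at and 1.01, 1.10 and 0.79 for 99100_at. Without EAE array 3 or control array 3 the log2 fold change of 99099_at was 0.69 and it did not pass (adjusted p = 0.0546 from limma).

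Stat5a and Stat5b are near-identical copies, so that probes for one may also bind RNA of the other, and Stat5b, Stat5a and Stat3 are adjacent protein-coding genes on chromosome 11 in the RefSeq table. Stat5a, first known from prolactin signalling in the mammary gland, was at 7.27, 7.18, 6.92, 7.01 and 7.03 in EAE arrays 1 to 5 by probe set 100422_i_at, against 6.66, 6.80 and 6.64 in control arrays. The groups did not overlap by a margin of 0.11, and the log2 fold change was 0.42 ± 0.0874 (SE) with a limma adjusted p of 0.0323. This call was lost without either array of any of the 3 batches that hold both groups, with adjusted p between 0.0783 and 0.106 and log2 fold changes between 0.32 and 0.49. The second probe set, 100423_f_at, was at 6.72, 6.60, 6.41, 6.72 and 6.63 in EAE arrays and at 6.40, 6.39 and 6.31 in control arrays. Its groups were 0.01 apart, and its difference of 0.21 ± 0.0739 (SE, log2) missed the threshold at a limma adjusted p of 0.121.

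Stat5b, the form linked to growth hormone in liver, was at 4.78, 4.85, 5.01, 4.86 and 4.84 in EAE arrays 1 to 5, against 4.83, 4.86 and 4.91 in control arrays. The groups overlapped, and the log2 fold change was 0.01 ± 0.0685 (SE) with a limma adjusted p of 0.925 and its 95% interval ran over -0.16 to 0.19. The sign changed between alternatives, and in control 17.4% of all probe sets were dimmer than this one, so the deposited values give a dim signal for Stat5b in both groups. Stat4, the STAT of interleukin 12 and of T helper 1 cells, was at 4.70, 4.62, 4.52, 4.62 and 4.72 in EAE arrays, against 4.41, 4.39 and 4.38 in control arrays. The groups of Stat4 did not overlap, but its difference of 0.22 ± 0.0676 (SE, log2) missed the threshold at a limma adjusted p of 0.0863. In control 6.75% of all probe sets were dimmer than that of Stat4 and in EAE 11.3%, and on the log2 scale of the array a small difference at the dim end can understate a change.

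**Figure D2:**
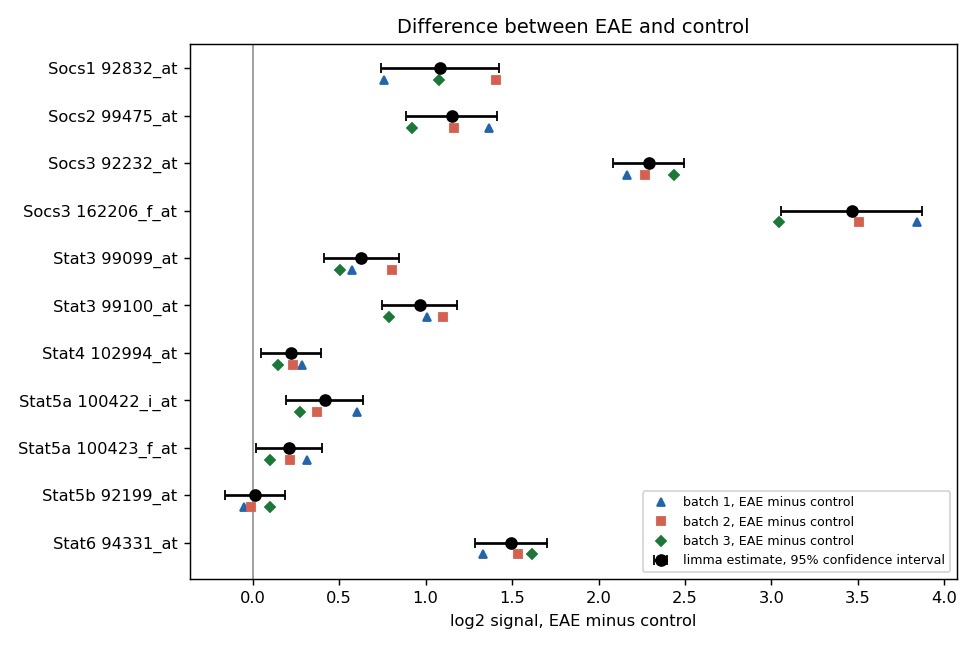
Difference in log2 signal between EAE and control (horizontal axis) for each of the 11 probe sets, with the limma estimate and its 95% confidence interval in black and the differences within batches 1, 2 and 3 as coloured symbols. The interval of Stat5b, -0.16 to 0.19, spans 0, and that of Socs3 162206_f_at starts at 3.06.

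Whether family members changed by unequal amounts was tested on the difference between 2 probe sets within each array, taking the probe set with the highest mean for each gene. Of 6 pairs planned 5 could be tested, since Stat2 was not measured, and p values were adjusted over the 5. The 8 arrays allow 56 regroupings, so the two-sided exact permutation test used cannot give a p below 0.0179. Socs3 changed more than both other SOCS genes: the log2 change of Socs2 minus that of Socs3 was -1.18, and that of Socs1 minus Socs3 was -1.24, each with an exact p of 0.0179 and an adjusted p of 0.0298. With batch in the model the 95% intervals were -2.04 to -0.24 for Socs2 minus Socs3 and -1.95 to -0.46 for Socs1 minus Socs3. The control signal of Socs1 lay nearer the dim end of the array, with 14.6% of all probe sets dimmer, against 33.4% for Socs3 92232_at, and a change of a dim probe set can be understated. Within batches 1, 2 and 3 the difference was -0.80, -1.11 and -1.52 for Socs2 minus Socs3 and -1.40, -0.86 and -1.36 for Socs1 minus Socs3, and with 162206_f_at in place of 92232_at both pairs lay further apart (-2.37 and -2.43). The change of Socs1 minus that of Socs2 was -0.06 (exact p = 0.857), and with batch in the model its 95% confidence interval was -1.23 to 1.10, which is wide enough to hold changes that are far from equal. By 99099_at Stat3 changed less than Stat6, with a difference of -0.92 (exact p = 0.0179, adjusted p = 0.0298) and a 95% interval of -1.39 to -0.34 with batch in the model. By 99100_at the difference was -0.58, and its interval with batch in the model, -1.18 to 0.12, spanned 0. The exact test regroups all 8 arrays and does not use the batches. The change of Stat5a minus that of Stat5b was 0.38 (exact p = 0.0714, adjusted p = 0.0893), and the 95% interval was -0.19 to 1.00 in the model with batch.

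The 11 probe sets did not order the EAE arrays alike. Relative to the control mean, EAE array 5 was the highest for both Stat3 probe sets (0.87 and 1.17), Stat4 (0.33), Socs1 (1.58) and Socs3 92232_at (2.85). Array 3 of EAE, from day 17, was the lowest for Socs2 (0.92), Socs3 162206_f_at (2.92), Stat4 (0.13) and both Stat5a probe sets (0.21 and 0.04), and the highest for Stat5b (0.14). Array 1 of EAE was the lowest for Socs1 (0.75), Stat6 (1.28), Socs3 92232_at (2.10), Stat3 99100_at (0.80) and Stat5b (-0.09). It was the highest for Socs3 162206_f_at (3.92) and Stat5a 100422_i_at (0.56). The mean of the macrophage and microglia markers was highest in EAE array 3, at 8.83, where Socs2 was lowest and Stat6 was second highest, at 1.78.

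**Figure D3:**
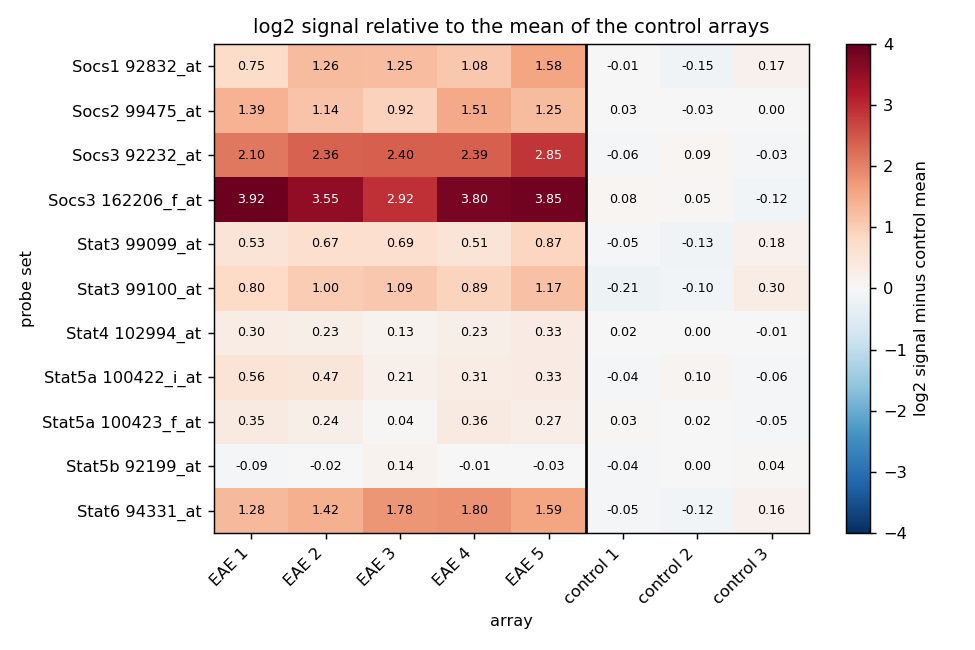
Log2 signal of each probe set (rows) on each array (columns, EAE left of the line, control right) after subtraction of the mean of the 3 control arrays, as colour and number. Socs3 162206_f_at lies between 2.92 and 3.92 in the EAE arrays, and Stat5b between -0.09 and 0.14.

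For each probe set the 3 genes with the most similar control-centred values over the 8 arrays were found by the root mean square difference, a distance in log2 units that mostly reflects the size of the change. Nearest to Socs3 92232_at were Csf2rb2 (0.156), a receptor chain for interleukin 3, Cd14 (0.180), a monocyte surface protein, and Usp18 (0.181), an inhibitor of interferon signalling. Nearest to Socs3 162206_f_at were Cytip (0.191), Ctsc (0.208) and Ifi204 (0.228). Stat6 lay closest to Plbd1 (0.120), Arhgdib (0.132) and Csf1r (0.143), the receptor of macrophage colony-stimulating factor. Socs2 lay closest to Adam8 (0.0714), Il1r1 (0.0991) and Cyp7b1 (0.107), and Socs1 to Lamp2 (0.107), Ackr1 (0.109) and Bst1 (0.130). Stat3 99099_at lay closest to Ifitm2 (0.0949), Bid (0.0983) and Zfp36 (0.106), and Stat3 99100_at to Rnf19b (0.113), Slc7a7 (0.122) and Pdpn (0.133). Stat5a 100422_i_at lay closest to Vcan (0.0742), Glycam1 (0.0759) and Csf1 (0.0790), and Stat5a 100423_f_at to Lifr (0.0402), Uhrf1 (0.0496) and Capza1 (0.0508). For Stat4 they were Irf4 (0.0357), Rap1b (0.0424) and Cdk2 (0.0451), and for Stat5b Foxk2 (0.0248), Crct1 (0.0262) and Col17a1 (0.0320).

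Upstream of the STATs stand the cytokines and their receptors. Over all 12422 probe sets 8.26% were higher at the threshold used for the counts below. The lists count only the probe set of a gene with the highest mean, so this share is not drawn from like probe sets. Of 9 receptors of the gp130 family and interleukin 10 that feed Stat3, 5 were higher, led by Osmr, the oncostatin M receptor (log2 fold change 1.92), Il10rb (0.94) and Il10ra (0.55), and of 6 of their ligands only Il6 was higher (1.26, adjusted p = 0.0363 from limma). Il6 had within-batch differences of 1.80, 1.59 and 0.41. Of 5 genes of interleukin 4 and interleukin 13 that feed Stat6, the receptor chains Il4ra (log2 fold change 1.40) and Il13ra1 (1.22) were higher, and the ligands Il4 (-0.05) and Il13 (0.03) did not pass. Of 4 genes of interleukin 12 upstream of Stat4 only the receptor chain Il12rb1 was higher (0.48). Of 12 receptors linked to Stat5a and Stat5b 5 were higher, led by Csf2rb2 (2.28), the interleukin 7 receptor Il7r (1.57) and Il15ra (0.76). Of 5 genes for interferon receptors and for Irf9, the partner of STAT2, 3 were higher: Irf9 (1.72), Ifnar2 (0.72) and Ifngr1 (0.67).

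Among the Janus kinases, which phosphorylate the STATs, Jak3 (log2 fold change 0.59, adjusted p = 0.0452 from limma) and Jak2 (0.51, adjusted p = 0.0134) were higher, although the EAE and control arrays of both overlapped, and Jak1 (-0.01) and Tyk2 (0.00) did not pass. Cish, the founding SOCS family gene, was higher (0.62, adjusted p = 0.0178 from limma), and Socs5 did not pass (-0.33, adjusted p = 0.0516). Every EAE array of Socs5 nevertheless lay below every control array, with within-batch differences of -0.45, -0.16 and -0.37. Of 10 other inhibitors of the pathway 5 were higher, against 8.26% of all probe sets. They were the phosphatases Ptprc (2.40), a leukocyte surface protein, Ptpn6 (1.43), Ptpn1 (1.43) and Ptpn2 (0.66), and Usp18 (2.24). None of the 3 PIAS genes measured, which bind STATs in the nucleus, passed (-0.17 to -0.12).

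Over all 12422 probe sets 8.26% were higher, and the median log2 fold change was -0.05, while the lists again count 1 probe set a gene. Among genes known as targets, 11 of 12 for STAT3 were higher with a median log2 fold change of 0.93, led by Lcn2 (5.97), Cebpd (3.51) and Serpina3n (3.38). All 9 measured targets of the STAT2 complex were higher (median 1.31), led by Ifit3 (3.14), Ifit1 (2.94) and Isg15 (2.90). For STAT6 5 of 8 were higher (median 0.87), led by Chil3 (6.26), Arg1 (4.47) and Mrc1 (1.02), and for STAT4 4 of 6 (median 0.45), led by Il18r1 (1.20), Gzmb (1.15) and Furin (0.56). For STAT5 2 of 7 were higher (median 0.15), Pim1 (0.90) and Cish (0.62), and Pim1 also stands among the STAT3 targets. Many of these genes also answer to other factors, and the part of the STATs in their values was not tested.

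**Figure D4:**
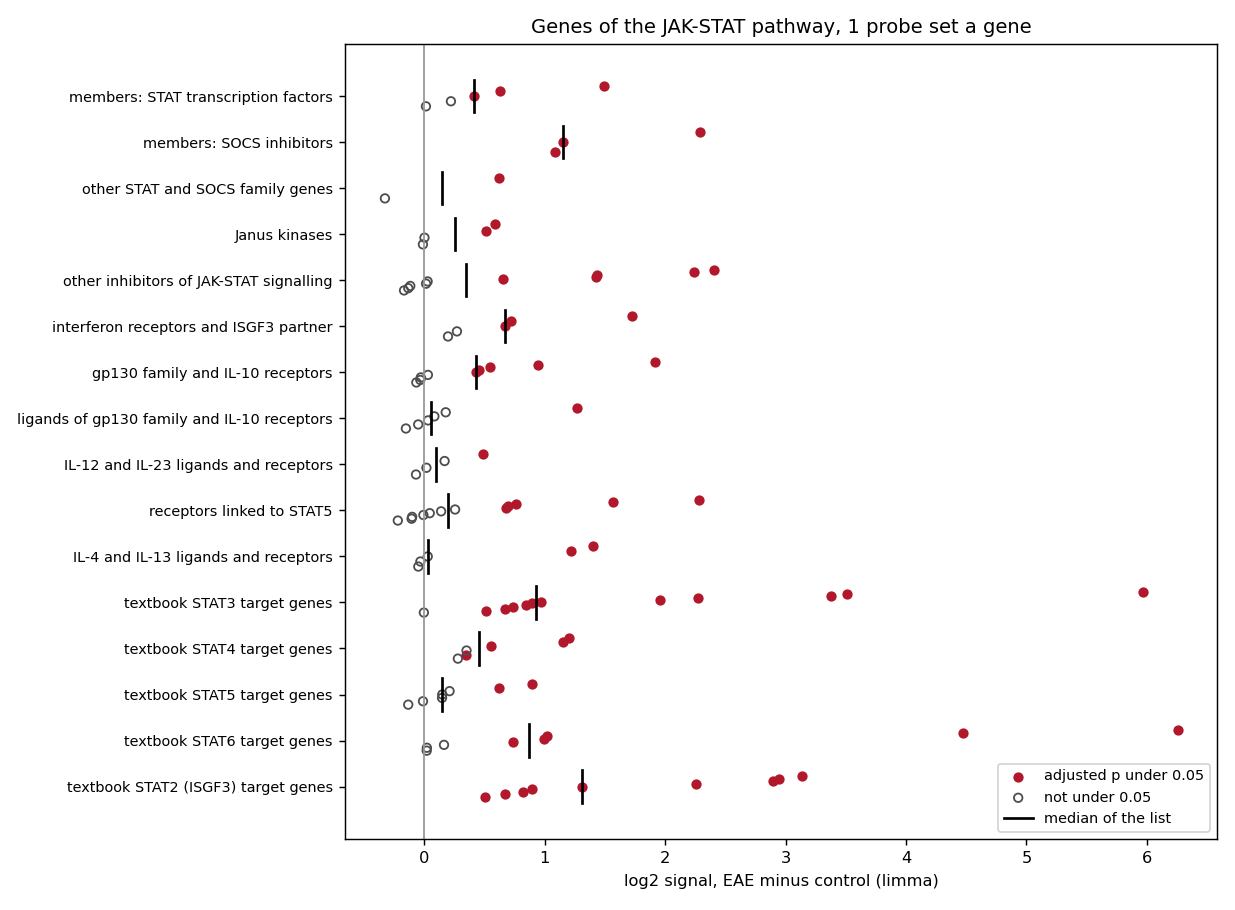
Difference in log2 signal between EAE and control (horizontal axis) for each measured gene of the STAT and SOCS families and of the pathway lists (rows), filled where the adjusted p from limma was under 0.05, with the median of each list as a black bar. The medians run from 0.03 for interleukin 4 and interleukin 13 genes to 1.31 for targets of the STAT2 complex.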

How the data were processed

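Expression was measured on 8 Affymetrix MG U74Av2 arrays. The deposited values are log2 signals that the authors made in Partek Genomics Suite with RMA, quantile normalization and adjustment for GC content, and they were used without further normalization. The software versions are not given in the sources used here. RMA compresses differences of dim probe sets, and detection calls were not used here. Symbols came from the platform annotation, which names 10833 probe sets with 1 gene, 396 with several and 1193 with none. All 66 Affymetrix control probe sets were left out of the tests.

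Treatment and batch were fitted as fixed terms with limma 3.58.1 in R 4.3.3, after the 2 way analysis of the methods, with 2 residual and 3.05 prior degrees of freedom. With batch in the model, the estimates rest on the pairs of batches 1 to 3, and EAE arrays 4 and 5 do not enter them. The labels give each array a batch equal to its array number. In batches 1, 2 and 3 the deviations of the paired arrays from their group means correlated at 0.302, -0.231 and 0.412. All limma tests were two-sided, with Benjamini-Hochberg adjustment over the 12422 probe sets. The procedure was tested on simulated data of the same design, with errors drawn independently for each probe set and array. Such data hold no differences in RNA quality, so the procedure was not tested for those. The probe set with the highest mean stood for a gene in lists and pairs. Named were every probe set of the 9 genes, up to 3 called genes a list in each direction, or up to 2 with the largest change where none was called, and the 3 nearest genes of each probe set. Socs5, Ptpn1, Ptpn2, the PIAS genes and further genes that did not pass were named after their values were seen. The genes, lists and alternatives were chosen with earlier results of these data known. RefSeq promoter windows were searched with Python 3.11.15, and figures were drawn with matplotlib 3.10.9. The number of arrays limits the precision.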

Additional observations from a re-analysis of the deposited data

Results flagged for a closer look

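None of the 11 SOCS and STAT probe sets had an EAE array far from the other 4. Over 34 groups of 5 EAE arrays, the 11 probe sets and 23 gene lists, 4 lists had 1 array far from the rest, where chance gives about 1 in 20 groups. The mean log2 signal of the Janus kinases was 7.28 in EAE array 4 (others 7.10 to 7.14), and that of the gp130 family and interleukin 10 receptors was 6.75 in the same array (others 6.61 to 6.65). The ligands of these receptors were at 5.71 in EAE array 3 (others 5.92 to 5.98). Skeletal muscle and Schwann cell markers were at 5.58 in EAE array 1 (others 5.23 to 5.33).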

How the results depend on the processing

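No SOCS or STAT probe set was called lower under any alternative, and 8 were called higher as reported. Ordinary least squares, with no moderation of variances, called 0 of the 11 (8 at an unadjusted p under 0.05), and over all probe sets 1 higher and 0 lower (1081 and 1575 at that unadjusted p). EAE arrays 4 and 5 do not enter the fit. Leaving out either gave the reported counts, 8 of the 11 higher, with 1026 probe sets higher and 1412 lower in all. Leaving out 1 array of batches 1 to 3 gave 5 to 7 of the 11 higher, 521 to 900 probe sets higher and 225 to 983 lower. Either array of a batch gave the same counts, lowest without EAE array 3 or control array 3. Without EAE array 2 or control array 2, 571 probe sets were lower. With no replicate block 9 of the 11 were higher, now with Stat4 (adjusted p = 0.0215 from limma), and with batch as a random block 10. Over all probe sets these fits called 1062 and 1205 higher, against 1026 as reported. Without EAE arrays 1 and 4 there were 7, and 8 when the block was also dropped, an alternative added after the data were seen. Over all probe sets 900 and 992 were then higher. With the block array 4 does not enter, so the first of these fits only leaves out EAE array 1. Stat5b, which was not called, had a log2 fold change of -0.0201 after median centring and -0.0049 after a further quantile normalization, and of -0.0298 to 0.0446 with 1 array left out, lowest without EAE array 3 or control array 3. At an adjusted p under 0.01 6 of the 11 were higher. Averaging the probe sets of each gene called 6 of 8 genes, as the single probe sets did, Stat5a among them (adjusted p = 0.0446 from limma). For the stricter threshold and for the averages, the share over the whole array was not counted. The planned Stat2 and Stat3 pair was not run.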
